A study of Mus musculus with 12 samples.

Results

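Fatty acid oxidation was followed through 36 genes of its mitochondrial and peroxisomal pathways in RNA-seq of mouse periocular skin. The genes are a list of shuttle proteins, oxidation enzymes, electron carriers and peroxisomal transporters, chosen by function with earlier results of these data known, and all 36 were among the 21247 genes counted. Of these, 35 had at least 10 counts summed over the 8 libraries and were tested, as were 20454 genes in all. The study compared ft/ft mice (4 libraries), whose filaggrin gene has lost its function through a point mutation that arose spontaneously, filaggrin being a structural protein of the outer epidermis, with ft/ftMyD88-/- mice (4 libraries), which carry the same filaggrin mutation and also lack MyD88, the adaptor of toll-like and IL-1 family receptors. The cross was made in-house on a BALB/c background, and mice of both groups were 6 weeks old. WT mice were not analysed here, so a lower value in ft/ftMyD88-/- skin is relative to ft/ft skin and not to normal skin.

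Long-chain fatty acids are joined to coenzyme A, passed into mitochondria on carnitine and shortened from the carboxyl end in a cycle of dehydrogenation, hydration, a second dehydrogenation and thiolytic cleavage, with the electrons handed to the respiratory chain. Peroxisomes run a parallel cycle that starts with an oxidase and releases hydrogen peroxide, and they handle very long chains, branched chains and bile acid precursors that mitochondria do not take. Skeletal muscle fibres, which lie under the dermis, burn fatty acids in mitochondria, as does brown fat elsewhere in the body. In skin, the lipid-making cells of the sebaceous gland hold many peroxisomes.

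The libraries differed in more than the MyD88 label. Total counts ranged from 15802957 to 29255129 per library, and 3 counts, the most that a count of 0 allows, were 0.102 to 0.183 CPM (the depth-scaled unit used throughout, counts divided by each library's size after edgeR's TMM scaling). Myd88 transcripts were not lower in the libraries labelled ft/ftMyD88-/-, at 41.2 ± 7.29 CPM (SD, n = 4) against 30.7 ± 4.74 (SD, n = 4, log2 fold change 0.42, edgeR adjusted p = 0.0484), and a count per gene does not show whether an exon is missing. Xist, which the inactive X chromosome of females transcribes, stood at 0 to 0.0429 CPM in ft/ft and 34.6 to 66.8 CPM in ft/ftMyD88-/-, and 4 Y-linked genes summed to 132 to 164 and 0 to 1.31 CPM. The transcripts of ft/ft were thus those of males, which conflicts with the study's statement that females were used, and sex and genotype cannot be told apart in any value here. Tmem79, the gene of the matted mutation that was bred out of the ft/ft strain, was at 59.2 ± 2.92 CPM in ft/ft and 16.4 ± 2.1 CPM in ft/ftMyD88-/- (SD, n = 4 each, edgeR adjusted p = 5.08e-07).

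Fatty acid oxidation transcripts were lower in ft/ftMyD88-/- skin for 18 of the 35 tested genes, and none was called higher (edgeR's quasi-likelihood test, adjusted p under 0.05 over all genes). Among all 20454 tested genes 12.3% were called lower and 10.9% higher. The median log2 fold change (ft/ftMyD88-/- over ft/ft) of the 35 genes was -0.38, against 0.01 over all tested genes, and 31 of the 35 lay below 0. The called decreases were modest, from 1.19-fold for Echs1 to 2.26-fold for Acaa1b. In 19 genes every ft/ftMyD88-/- library lay below every ft/ft library, which 14.2% of all tested genes did. These genes are mostly well expressed, and of the 10243 tested genes with a mean of at least 10 CPM, 18.9% were called lower, against 18 of the 33 oxidation genes above that level. Summed over the 35 tested genes, the pathway made up 5079 to 5476 CPM in ft/ft and 3993 to 4368 CPM in ft/ftMyD88-/-. With library size alone as the scale, the all-gene median moved up by 0.18, 1326 genes were called lower and 4638 higher in place of 2525 and 2239, and the oxidation genes split into 14 lower and 3 higher, while the gap between their median and that of all genes stayed at -0.39. In bulk skin, fewer cells of a type and less RNA per cell cannot be told apart, and this holds for every difference below.

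**Figure D1:**
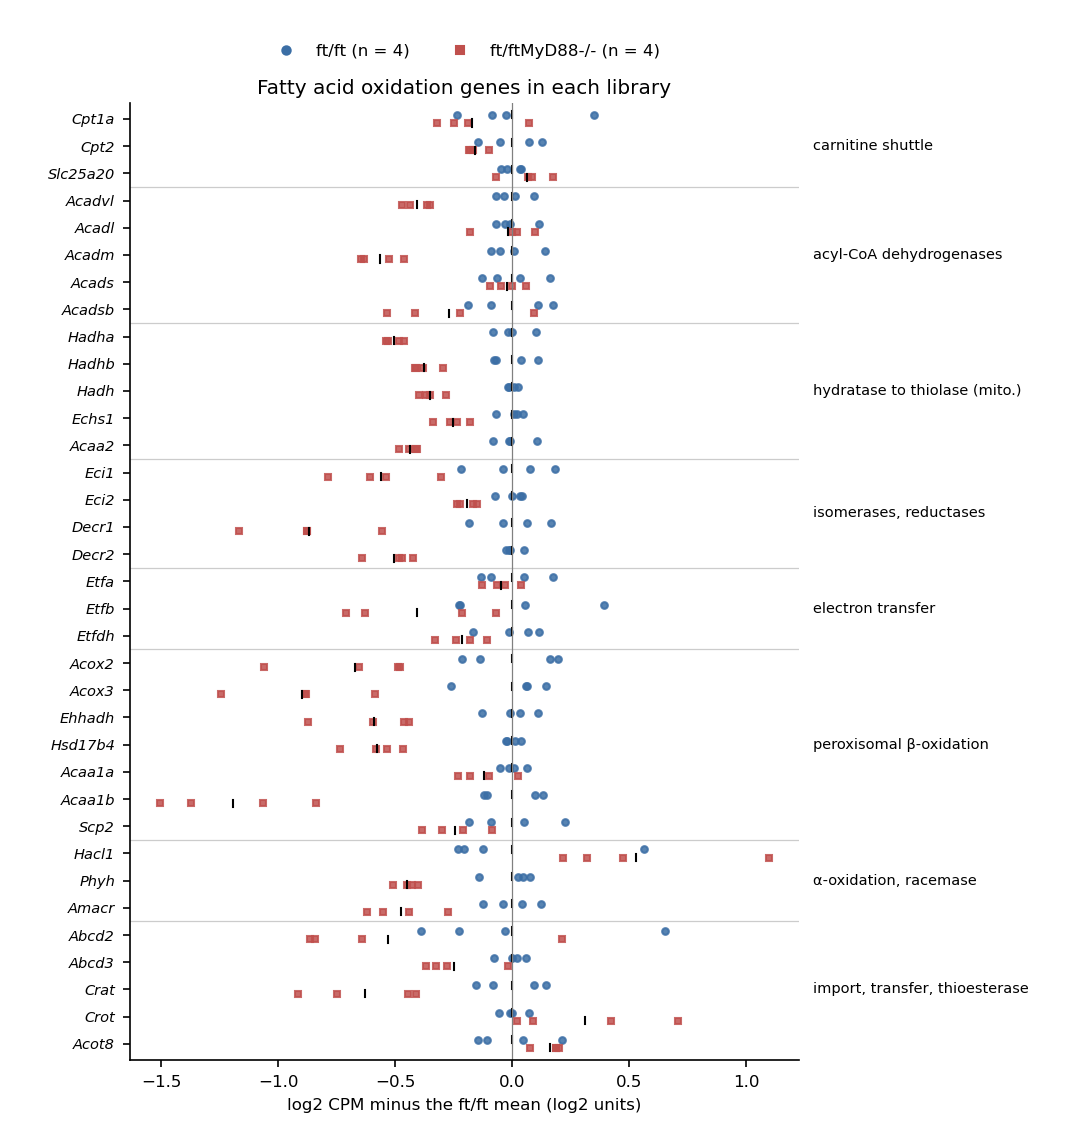
Each row is 1 of the 35 tested genes, grouped by role, and each point is 1 library (blue circles ft/ft, red squares ft/ftMyD88-/-, n = 4 each) at its log2 CPM minus the gene's ft/ft mean, with short black lines at the group means. All 5 genes of the mitochondrial steps from hydratase to thiolase separate by group, whereas the 3 carnitine shuttle genes overlap.

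The carnitine shuttle, which carries long chains across the inner mitochondrial membrane, had no gene that passed the test. Cpt1a, the outer-membrane acyltransferase held to set the rate of entry in most tissues other than muscle, was at 106, 159, 117 and 122 CPM in ft/ft and 131, 99.7, 105 and 109 CPM in ft/ftMyD88-/-. The groups overlapped, with ft/ft replicate 2 the highest library, and the difference did not pass (log2 fold change -0.18, SE 0.128, edgeR adjusted p = 0.337, 95% interval -0.46 to 0.10). Cpt2, the inner-membrane acyltransferase, was at 41.7 to 50.3 CPM in ft/ft and 40.5 to 42.9 CPM in ft/ftMyD88-/- (log2 fold change -0.16, SE 0.0841, edgeR adjusted p = 0.182), and the translocase Slc25a20 lay at 99.6 to 106 CPM in ft/ft and 98.3 to 116 CPM in ft/ftMyD88-/- (log2 fold change 0.06, SE 0.0797, edgeR adjusted p = 0.601). Scaled by library size alone, Cpt2 turned to 0.01 and Slc25a20 was called higher (log2 fold change 0.24). Cpt1b, the muscle form of the outer-membrane enzyme, was left untested, with raw counts of 3, 1, 1 and 0 for ft/ft and 3, 0, 0 and 0 for ft/ftMyD88-/-. In the same ft/ft libraries the muscle transcript Myh4 averaged 3018 CPM, and 81.4% of the exon bases of Cpt1b are also exon of a same-strand gene in GENCODE vM21, so the level of Cpt1b is uncertain. That same-strand gene, Gm44502, was not among the genes counted, and the part of the overlap in the counts was not tested.

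The acyl-CoA dehydrogenases, which take the first pair of hydrogens from chains of different length, had 2 of 5 genes called lower. Acadm, the medium-chain enzyme, was at 269, 236, 229.7 and 245 CPM in ft/ft and 156, 169.8, 177 and 158 CPM in ft/ftMyD88-/-. Every ft/ft library was above every ft/ftMyD88-/- library (log2 fold change -0.57, SE 0.0864, edgeR adjusted p = 9.03e-04). Acadvl, the very-long-chain enzyme of the inner membrane, was at 113, 116, 109.9 and 123 CPM in ft/ft and 89.7, 90.5, 85.2 and 83.1 CPM in ft/ftMyD88-/-. It fell without overlap (log2 fold change -0.41, SE 0.0772, edgeR adjusted p = 0.00318), and 42.9% of its exon bases face the opposite-strand gene Dvl2, so its level is uncertain where counting did not use strand. Acadl (long-chain) and Acads (short-chain) were nearly level between groups at -0.01 and -0.02 on the log2 scale (95% intervals -0.20 to 0.17 and -0.21 to 0.16), and each reversed sign with library size alone. Acadsb, which acts on short branched chains, was at 75.4 to 96.8 CPM in ft/ft and 59.2 to 91.7 CPM in ft/ftMyD88-/-, with a log2 fold change of -0.26 that did not pass (edgeR adjusted p = 0.184), and it was called lower without ft/ftMyD88-/- replicate 3 (log2 fold change -0.38). The ratio of Acadm to Acadl counts, which no scaling touches, was 1.65 to 2.00 in ft/ft, against 1.07 to 1.29 in ft/ftMyD88-/-. This pair was chosen after the values were seen, so the ratio is a description without a test.

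The mitochondrial steps from hydration to cleavage were the one role in which every gene was called lower, 5 of 5 (2 of 5 with library size alone). Hadha and Hadhb encode the α and β subunits of the trifunctional protein, which runs the last 3 steps for long chains. Hadha was at 363, 412, 379 and 384 CPM in ft/ft and 279, 264, 274 and 266 CPM in ft/ftMyD88-/- (log2 fold change -0.51, SE 0.0807, edgeR adjusted p = 0.00118). Hadhb was at 182, 161, 159.7 and 173 CPM in ft/ft and 129.6, 126, 137 and 127 CPM in ft/ftMyD88-/- (log2 fold change -0.38, SE 0.0803, edgeR adjusted p = 0.00578). For both subunits the 4 ft/ftMyD88-/- libraries sat close together below all of ft/ft, and the ratio of Hadha to Hadhb counts overlapped between groups (1.99 to 2.56 in ft/ft, 2.00 to 2.15 in ft/ftMyD88-/-). Of the 50-base sequences of Hadhb in GENCODE vM21, 19.7% also occur in other genes (18.1% in Gm13910). The level of Hadhb and this ratio are therefore less certain. Hadh, the dehydrogenase for medium and short 3-hydroxyacyl chains, was at 260.1, 253, 257 and 253 CPM in ft/ft and 194, 210.2, 198 and 201 CPM in ft/ftMyD88-/- (log2 fold change -0.35, SE 0.0753, edgeR adjusted p = 0.00601). Acaa2, the mitochondrial 3-ketoacyl-CoA thiolase, was at 255, 224, 235 and 235 CPM in ft/ft and 175, 169, 179 and 178 CPM in ft/ftMyD88-/- (log2 fold change -0.44, SE 0.0785, edgeR adjusted p = 0.00232). Both genes separated by group in every library. Echs1, the short-chain hydratase, had the smallest called decrease, at 179, 169.6, 180.3 and 184 CPM in ft/ft and 141, 151, 148 and 157 CPM in ft/ftMyD88-/- (log2 fold change -0.25, SE 0.0770, edgeR adjusted p = 0.0319). Its libraries did not overlap, but its call was lost in 10 of 18 alternative settings, among them 6 of the 8 that left out 1 library. Hadha and Acaa2 were still called lower with library size alone, whereas Hadhb, Hadh and Echs1 were not.

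Unsaturated chains need isomerases and reductases to move or remove their double bonds, and 3 of these 4 genes were called lower. Decr1 (GRCm38.p6 chr4:15917240-15945377, minus strand), the mitochondrial 2,4-dienoyl-CoA reductase, was at 114, 89.8, 99.6 and 107 CPM in ft/ft and 45.4, 55.6, 69.5 and 55.6 CPM in ft/ftMyD88-/-. This was a 1.81-fold decrease, with ft/ftMyD88-/- replicate 3 nearest to ft/ft and replicate 1 farthest (log2 fold change -0.86, SE 0.124, edgeR adjusted p = 6.72e-04). Its peroxisomal counterpart Decr2 was at 38.7, 40.3, 38.3 and 38.7 CPM in ft/ft and 28.1, 29.1, 25 and 27.9 CPM in ft/ftMyD88-/- (log2 fold change -0.50, SE 0.0829, edgeR adjusted p = 0.00141). Eci1, the mitochondrial enoyl-CoA isomerase, was at 59.9, 45.4, 51.3 and 55.7 CPM in ft/ft and 30.6, 34.7, 42.7 and 36.3 CPM in ft/ftMyD88-/- (log2 fold change -0.56, SE 0.116, edgeR adjusted p = 0.00524). Neither Decr2 nor Eci1 overlapped between groups. Eci2, an isomerase of both organelles, also had every ft/ftMyD88-/- library below every ft/ft library, at 59.0 to 64.0 CPM in ft/ft and 52.7 to 55.9 CPM in ft/ftMyD88-/-, but it missed the threshold (log2 fold change -0.20, SE 0.0734, edgeR adjusted p = 0.0736).

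Electrons from the dehydrogenases pass through the electron transfer flavoprotein (Etfa and Etfb) and its oxidoreductase (Etfdh), and none of the 3 genes passed the test. Etfa was at 182 to 226 CPM in ft/ft and 183 to 205 CPM in ft/ftMyD88-/- (log2 fold change -0.05, 95% interval -0.25 to 0.14), and its sign turned with library size alone. Etfdh had a log2 fold change of -0.22 (edgeR adjusted p = 0.0984). Etfb stood at only 1.45 to 2.23 CPM in ft/ft and 1.04 to 1.62 CPM in ft/ftMyD88-/- (edgeR adjusted p = 0.264). Per kilobase of exon it was at 1.48 CPM in ft/ft, against 109 CPM for its partner subunit Etfa. In GENCODE vM21, 58.2% of the exon bases of Etfb are also exon of a same-strand gene, and the level of Etfb is uncertain. The main overlapping gene, Gm45233, was not among the genes counted.

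Peroxisomal β-oxidation had 5 of 7 genes called lower and a median log2 fold change of -0.58. Acox3 (GRCm38.p6 chr5:35582981-35614208, plus strand), an oxidase of branched chains, was at 58.4, 62.1, 46.7 and 58.6 CPM in ft/ft and 30.4, 30.4, 37.4 and 23.7 CPM in ft/ftMyD88-/- (log2 fold change -0.89, SE 0.133, edgeR adjusted p = 8.23e-04). Acox2, the oxidase of bile acid intermediates and branched chains, was at 86.6, 109, 82.1 and 106 CPM in ft/ft and 60.5, 68.3, 67.8 and 45.7 CPM in ft/ftMyD88-/- (log2 fold change -0.66, SE 0.137, edgeR adjusted p = 0.00511). In both genes ft/ftMyD88-/- replicate 4 was the lowest library and no library crossed to the other group. Ehhadh, the L-bifunctional enzyme (hydratase and dehydrogenase), was at 25, 28, 29.5 and 27.1 CPM in ft/ft and 19.9, 18.1, 20.2 and 14.9 CPM in ft/ftMyD88-/- (log2 fold change -0.58, SE 0.112, edgeR adjusted p = 0.00339). Hsd17b4, the D-bifunctional enzyme that serves the same steps for very long and branched chains, was at 297, 309.9, 297 and 304 CPM in ft/ft and 209, 218, 202 and 181 CPM in ft/ftMyD88-/- (log2 fold change -0.58, SE 0.0844, edgeR adjusted p = 7.15e-04). Both bifunctional enzymes fell without overlap. Scp2, whose longer product is the thiolase for branched chains and whose shorter product transfers sterols, was at 484 to 642 CPM in ft/ft and 421 to 517 CPM in ft/ftMyD88-/- and did not pass (log2 fold change -0.25, SE 0.109, edgeR adjusted p = 0.117). Of the 50-base sequences of Scp2 in GENCODE vM21, 29.7% also occur in Scp2-ps2, so the level of Scp2 is uncertain.

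The last step of straight-chain peroxisomal β-oxidation is made by 2 near-identical mouse thiolases, Acaa1a and Acaa1b, of which Acaa1b was called. Acaa1b (GRCm38 chr9:119148043-119157093, minus strand) was at 85.3, 101, 84.5 and 98.4 CPM in ft/ft and 44.0, 51.4, 32.4 and 35.5 CPM in ft/ftMyD88-/-. Its highest ft/ftMyD88-/- library was well below its lowest ft/ft library, and the decrease of 2.26-fold was the largest of the pathway (log2 fold change -1.18, SE 0.137, edgeR adjusted p = 2.03e-04). Acaa1a (chr9:119341028-119350296, plus strand) was at 213, 205, 202 and 197 CPM in ft/ft and 174, 208, 191 and 180.3 CPM in ft/ftMyD88-/-. Its groups overlapped and the difference did not pass (log2 fold change -0.12, SE 0.0838, edgeR adjusted p = 0.334). The ratio of Acaa1b to Acaa1a counts was 0.400 to 0.50 in ft/ft, against 0.170 to 0.253 in ft/ftMyD88-/-, given as a description since the pair was chosen with its values known. The coding sequences of both genes are 1275 bases long, differ at 44 bases (96.5% identity) and have no difference in 38.1% of their 50-base windows, the length of the reads, so part of the reads could be counted for either gene or for none. Counted as 1 gene, the pair was lower (log2 fold change -0.37, SE 0.0867, edgeR adjusted p = 0.00907). The stretch below, coding bases 269 to 318 on the gene's own strand in GRCm38, is the 50-base window with the most differences (11, in capitals) and shows where a read can tell the genes apart.
Acaa1a: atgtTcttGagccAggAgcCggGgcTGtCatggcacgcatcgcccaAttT
Acaa1b: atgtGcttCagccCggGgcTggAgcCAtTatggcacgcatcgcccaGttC
Acaa1a also lies next to Myd88, and 6.57% of its exon bases are exon of that opposite-strand gene. Acaa1b lies on the same chromosome at the coordinates above. The part of the altered Myd88 locus in the values of either gene was not tested.

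**Figure D2:**
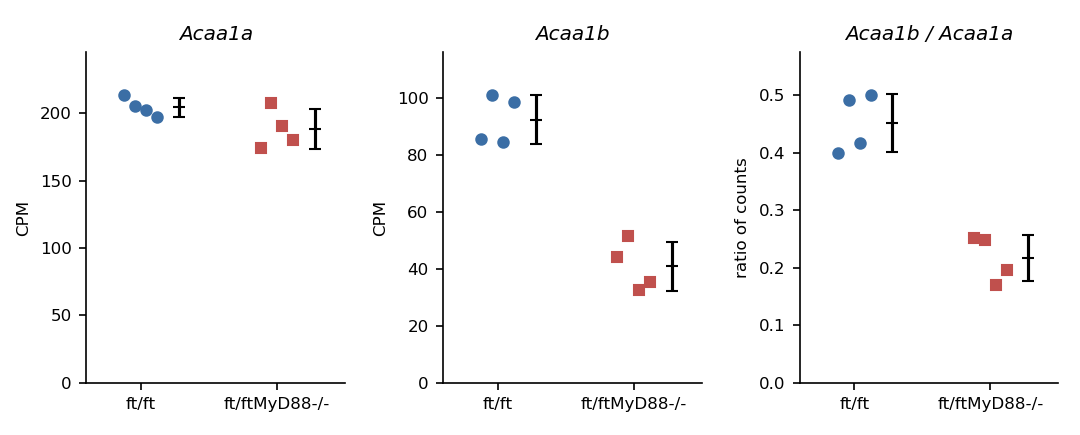
CPM of Acaa1a and Acaa1b and the ratio of their counts in each library (points, ft/ft blue circles, ft/ftMyD88-/- red squares), with the mean and SD of each group (n = 4) beside the points. Acaa1b lies between 84.5 and 101 CPM in ft/ft and between 32.4 and 51.4 CPM in ft/ftMyD88-/-, while the Acaa1a libraries overlap.

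Peroxisomes also trim branched chains by α-oxidation before β-oxidation can begin. Phyh, the phytanoyl-CoA hydroxylase that opens this route, was at 168, 171, 149.7 and 174 CPM in ft/ft and 116, 125, 121 and 123 CPM in ft/ftMyD88-/- (log2 fold change -0.45, SE 0.0803, edgeR adjusted p = 0.00223). Amacr, the racemase that turns branched acyl-CoA into the form the oxidases accept, was at 22.5, 19.0, 20.1 and 21.3 CPM in ft/ft and 13.5, 15.2, 17.1 and 14.1 CPM in ft/ftMyD88-/- (log2 fold change -0.47, SE 0.108, edgeR adjusted p = 0.00884). The groups of both genes were apart, and the call of Amacr was lost with library size alone. Hacl1, the lyase of the next step, was barely detected, at 1.35 to 2.34 CPM in ft/ft and 1.84 to 3.38 CPM in ft/ftMyD88-/-, with a log2 fold change of 0.53 (edgeR adjusted p = 0.169), and 31.1% of its exon bases are shared with a same-strand gene. That same-strand gene, Gm49387, was not among the genes counted.

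Among the genes that bring chains into peroxisomes and export the products, 1 of 5 was called. Crat, which makes acetyl-carnitine in mitochondria and peroxisomes, was at 468, 575, 492 and 557 CPM in ft/ft and 383, 392, 310.4 and 276 CPM in ft/ftMyD88-/-. All 4 ft/ftMyD88-/- libraries were below ft/ft, replicate 4 farthest (log2 fold change -0.62, SE 0.124, edgeR adjusted p = 0.00425). Crot, the peroxisomal acyltransferase for medium chains, pointed the other way at 68.6 to 74.9 CPM in ft/ft and 72.2 to 117 CPM in ft/ftMyD88-/- and missed the threshold (log2 fold change 0.34, SE 0.134, edgeR adjusted p = 0.0907), but was called higher without ft/ftMyD88-/- replicate 2 (log2 fold change 0.43) or replicate 3 (0.42) and with library size alone (0.51). The ratio of Crat to Crot counts was 6.25 to 8.08 in ft/ft, against 2.89 to 5.43 in ft/ftMyD88-/-, again a description of a pair chosen afterwards. Abcd3, the main peroxisomal importer of branched and long dicarboxylic chains, was at 418 to 460.1 CPM in ft/ft and 341 to 436 CPM in ft/ftMyD88-/- (log2 fold change -0.24, SE 0.0965, edgeR adjusted p = 0.088), and it was called lower without ft/ftMyD88-/- replicate 2 (log2 fold change -0.32). Acot8, a peroxisomal thioesterase, had a log2 fold change of 0.15 (edgeR adjusted p = 0.321) and was called higher with library size alone (0.33).

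Abcd2, a very-long-chain importer found in fat and brain, had the largest SE of the 35 genes, at 37.9, 29.5, 33.0 and 60.8 CPM in ft/ft and 21.3, 21.6, 44.9 and 24.8 CPM in ft/ftMyD88-/- (log2 fold change -0.52, SE 0.323, edgeR adjusted p = 0.295). Its highest libraries were ft/ft replicate 4 and ft/ftMyD88-/- replicate 3. These were also the libraries with the most adipocyte transcript, where 8 markers summed to 143% and 131% of the ft/ft mean against 57.5% to 117% in the other 6. None of the 8 adipocyte markers passed the test, and their part in the Abcd2 values was not tested. Without ft/ftMyD88-/- replicate 3, Abcd2 was called lower (log2 fold change -0.83, edgeR adjusted p = 0.0335).

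**Figure D3:**
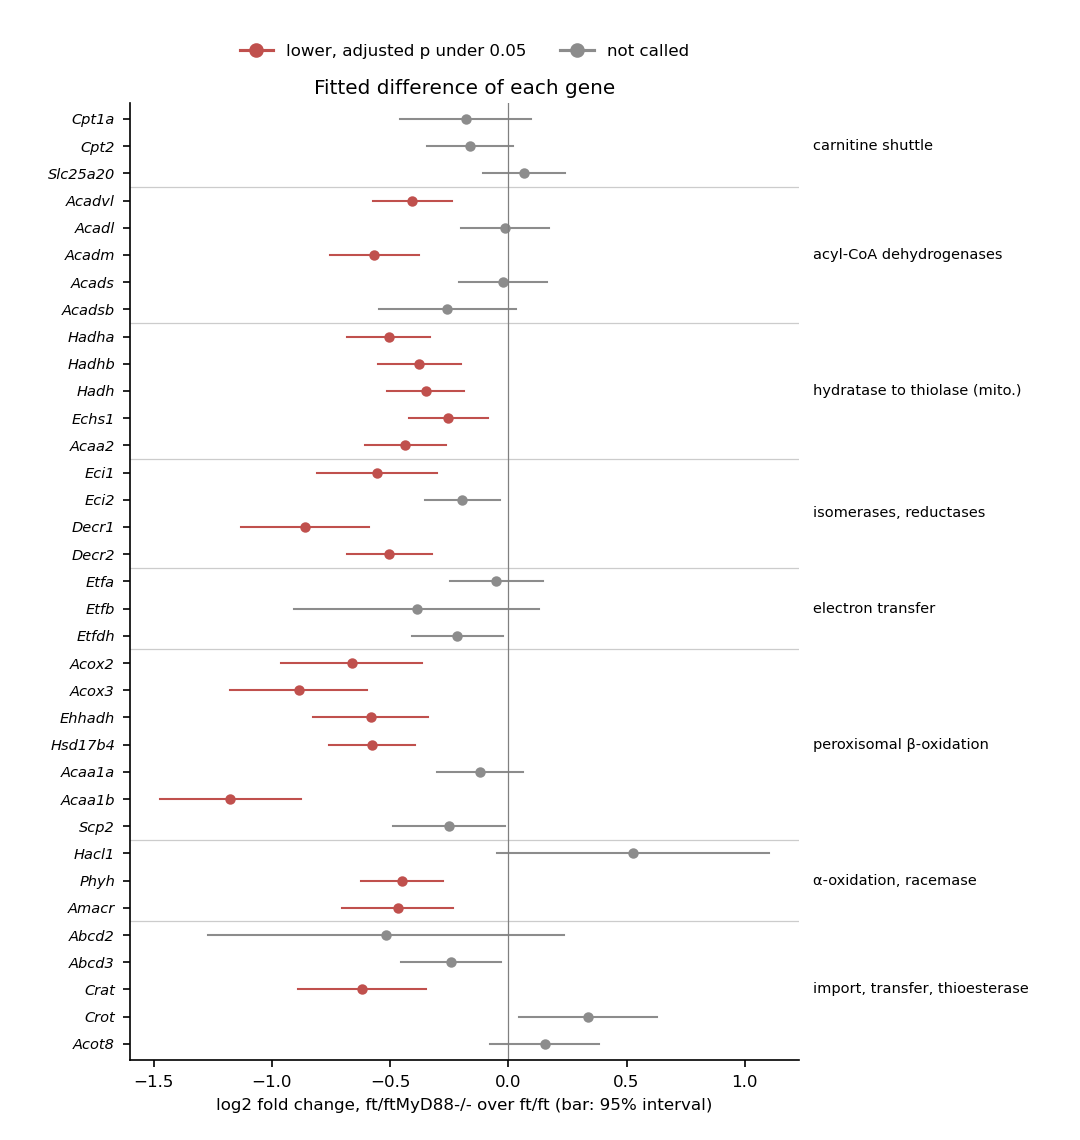
Log2 fold change of ft/ftMyD88-/- over ft/ft from edgeR (points) with its 95% interval (bars) for the 35 tested genes, by role, with genes called at an adjusted p under 0.05 in red. The 18 called genes run from -1.18 (Acaa1b) to -0.25 (Echs1), and the genes above 0 are Slc25a20, Hacl1, Crot and Acot8, none of them called.

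By compartment, 9 of 18 tested mitochondrial genes were called lower, as were 8 of 15 peroxisomal genes. The median log2 fold change was -0.30 over the tested mitochondrial genes and -0.47 over the peroxisomal genes. Both compartments held only decreases among their called genes. Of the 2 genes assigned to both, Crat fell and Eci2 did not pass. With library size alone the split was 6 lower and 1 higher in mitochondria and 7 lower and 2 higher in peroxisomes. Whether the compartments differ from each other was not tested.

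Per kilobase of exon (the union of exons in GENCODE vM21), the highest values in ft/ft skin were Scp2 at 159 ± 19.9 and Acaa2 at 156 ± 8.53 CPM per kb (SD, n = 4), which did not differ beyond their spread. Etfa followed at 109 ± 10.8, then Crat at 97.1 ± 9.47, Hsd17b4 at 88.7 ± 1.84 and Phyh at 87.5 ± 5.76 CPM per kb, and Hsd17b4 lay within 1 SD of the Crat mean and of the Phyh mean. In ft/ftMyD88-/- skin Acaa2 was at 116 ± 2.84 and Crat at 63.2 ± 10.4 CPM per kb, while Etfa was at 106 ± 5.08. At the low end in ft/ft were Acox3 at 4.90 ± 0.581, Etfb at 1.48 ± 0.315 and Hacl1 at 0.329 ± 0.0964 CPM per kb. Acox3 has the longest exon union of the tested genes, 11521 bases, and averaged 56.5 CPM in ft/ft, against 1.72 for Etfb and 1.63 for Hacl1. Acaa1b and Acaa1a were at like levels per kilobase in ft/ft, at 47.0 ± 4.36 and 46.3 ± 1.55, and 20.8 ± 4.39 and 42.6 ± 3.33 in ft/ftMyD88-/-. The likeness in ft/ft rests on exon lengths of 1962 and 4414 bases. Without division by length, Acaa1b was below Acaa1a in ft/ft, at 92.3 ± 8.55 against 204 ± 6.84 CPM (SD, n = 4). The order at the top also depends on the exon union. Undivided, Scp2 averaged 553, Crat 523, Abcd3 442 and Acaa2 237 CPM in ft/ft.

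Pathways on either side of oxidation were described by lists, each with its called genes. The lists were written with earlier results known, and their splits are read against the 12.3% and 10.9% of all genes. Among 16 acyl-CoA synthetases and uptake proteins 8 were lower and 2 higher, led by Acsbg1, a very-long-chain acyl-CoA synthetase (-0.995, SE 0.0949, edgeR adjusted p = 6.16e-05), and Slc22a5, the carnitine transporter of the plasma membrane (-0.70), with Fabp5, the epidermal fatty acid binding protein (0.85), and Slc27a6 (1.04) on the higher side. Among 16 regulators 7 were lower and 1 higher. Acacb, the mitochondrial-surface acetyl-CoA carboxylase whose malonyl-CoA inhibits Cpt1, was the lower gene with the smallest adjusted p (log2 fold change -1.22, SE 0.175, edgeR adjusted p = 9.76e-04), followed by Esrrg, a nuclear receptor of oxidative tissues (-1.35). Ppard, a fatty acid-sensing nuclear receptor, was the 1 higher gene (log2 fold change 0.52, SE 0.134, edgeR adjusted p = 0.016). Ppara, the receptor best known for inducing oxidation genes, was lower (log2 fold change -0.54, SE 0.128, edgeR adjusted p = 0.00979), but not with library size alone (edgeR adjusted p = 0.0592), and it was named after its value was seen. With library size alone the split was 5 lower and 3 higher among synthetases and uptake and 5 lower and 4 higher among regulators.

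Of 7 lipolysis genes 1 was lower, Plin5, a lipid droplet protein of oxidative cells (-0.90). Of 5 genes of ketone body metabolism, Bdh1 was called higher (0.53). Among 17 genes for odd and branched chains 11 were lower and none higher, with Pccb, a subunit of propionyl-CoA carboxylase (-0.63), and Acad11 (-0.46) first. Other peroxisomal enzymes gave 5 lower and 1 higher of 14. Gnpat, which starts ether lipid synthesis (-0.61), and Ech1 (-0.51) led, and Agps, the next enzyme of ether lipid synthesis, was the higher one (0.26). With library size alone, lipolysis had 1 lower and 1 higher, odd and branched chains 3 and 1, and other peroxisomal enzymes 3 and 2.

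Organelle and downstream genes followed in 3 lists. Of 15 peroxisome biogenesis genes 5 were lower, with Pex16 (-0.52) and Pex19 (-0.40) first and a median of -0.16. The citrate cycle, which takes up the acetyl-CoA, had 6 lower of 15, led by Ogdh (-0.58) and Sdha (-0.51), and a median of -0.18. The respiratory chain had 3 lower of 12, with Atp5a1 (-0.33) and Ndufv1 (-0.29) first, and a median of -0.16. None of these 3 lists had a gene called higher, but with library size alone the calls became 1 lower and 3 higher, 5 lower and 2 higher, and none, and their medians came to 0.02, 0.00 and 0.02. Whether their medians differ from the -0.38 of fatty acid oxidation was not tested.

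**Figure D4:**
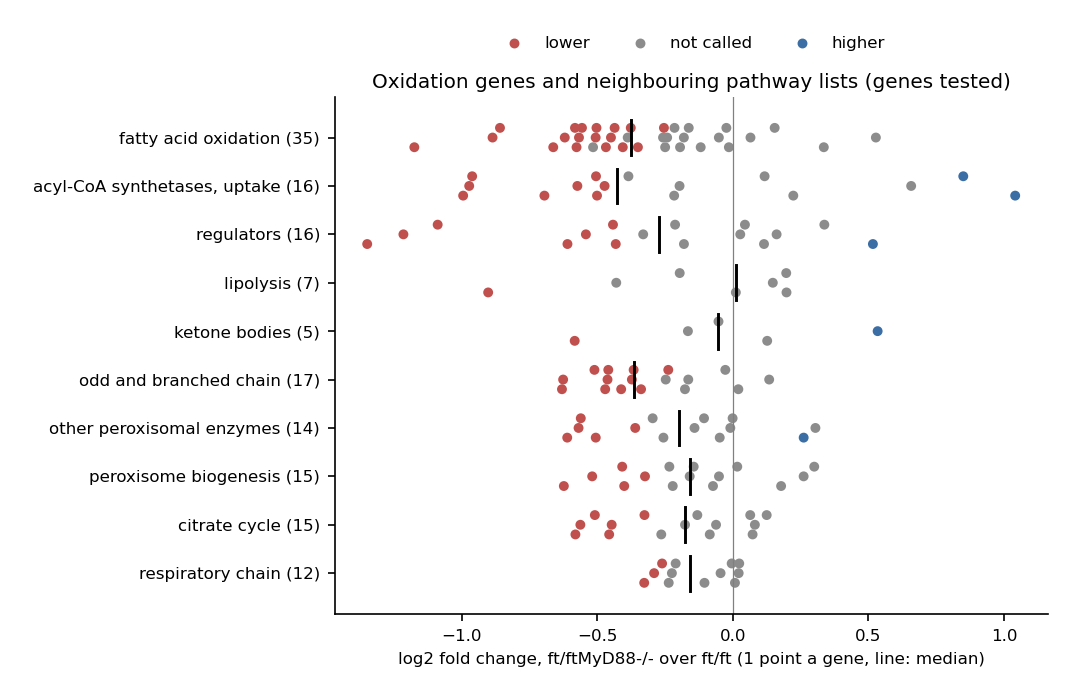
Log2 fold change of every tested gene (1 point a gene) in fatty acid oxidation and 9 neighbouring lists, with the number tested in parentheses, called genes in red (lower) or blue (higher) and a black line at the list's median. Fatty acid oxidation has 18 red points and no blue one, and synthetases and uptake have 8 red and 2 blue.

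Transcripts of several cell types moved with the oxidation genes. Skeletal muscle markers were lower in ft/ftMyD88-/- for 10 of 11 genes (8 with library size alone) and summed to 9218 to 12371 CPM in ft/ft and 3498 to 6739 CPM in ft/ftMyD88-/-. Within ft/ftMyD88-/- the muscle sum was lowest in replicate 1 and highest in replicate 3, as was the mitochondrial oxidation sum (77.9% and 81.9% of the ft/ft mean). Within ft/ft the orders differed, with the muscle sum highest in replicate 4 (121% of the mean) and lowest in replicate 2 (90.0%), and the mitochondrial oxidation sum highest in replicate 1 (102%) and lowest in replicate 3 (96.5%). Sebocyte markers were lower for 6 of 10 genes (3 lower and 1 higher with library size alone) and summed to 8174 to 9392 CPM against 6337 to 8269 CPM. The library with the highest sebocyte sum in ft/ftMyD88-/-, replicate 2 at 93.6% of the ft/ft mean, was also the one with the highest peroxisomal oxidation sum, at 86.1%, but the lowest sums were in replicate 3 for sebocyte markers (71.7%) and in replicate 4 for peroxisomal oxidation (73.99%). Within ft/ft the sebocyte sum was highest in replicate 2 (106%) and the peroxisomal oxidation sum in replicate 1 (104%). Keratinocyte markers were lower for 5 of 8 genes, all 5 proliferation markers and 3 of 4 T cell markers were higher, and 1 of 6 macrophage and 1 of 5 neutrophil markers were called higher. All 5 tested neutrophil markers lay above 0 (median log2 fold change 1.66). They summed to 21.6 to 250 CPM in ft/ft, replicate 2 being the highest, and 399 to 959 CPM in ft/ftMyD88-/-. The brown fat marker Ucp1 was near the counting floor in both groups, at 0.372 and 0.218 CPM on average, and 1 of 4 brown fat markers was lower, Cox7a1, which muscle also expresses. No muscle, sebocyte or adipocyte marker averaged 0 in either group, and the part of these lists in the oxidation values was not tested.

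**Figure D5:**
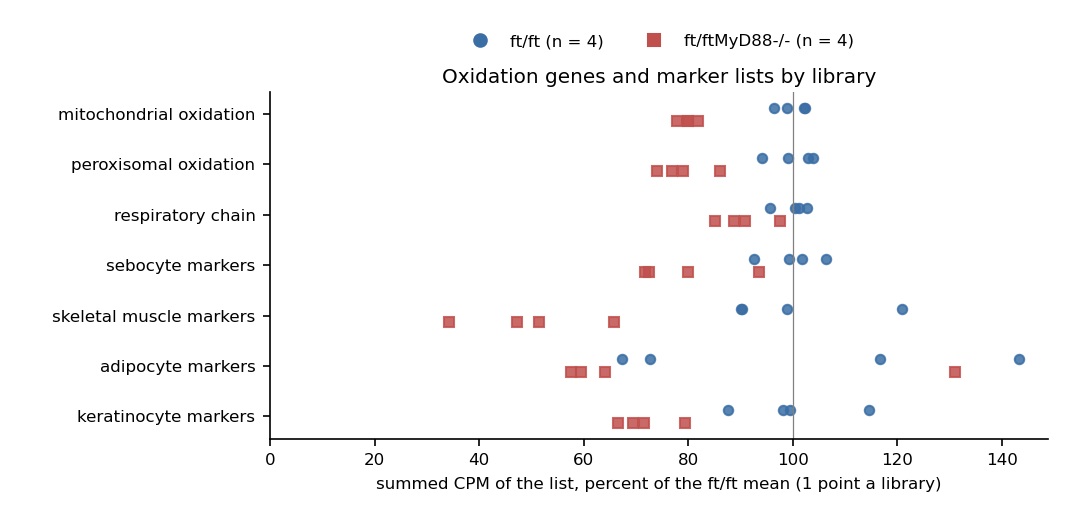
Summed CPM of each list in each library as a percent of its ft/ft mean (blue circles ft/ft, red squares ft/ftMyD88-/-, n = 4 each). Mitochondrial oxidation lies at 77.9% to 81.9% in ft/ftMyD88-/-, skeletal muscle markers at 34.2% to 65.8% and sebocyte markers at 71.7% to 93.6%, and adipocyte markers spread over both groups.

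As a description, the promoters of the oxidation genes (from 250 bases before the start to 50 after, RefSeq, GRCm38.p6) were searched for the half-site of nuclear receptors, AGGTCA, on either strand. Of 36 genes 29 had a promoter in the table, and 6 of these (20.7%) held the half-site, against 18.1% of 27025 genes. The tandem repeat of the half-site with 1 base between, the form that PPAR and RXR bind, was absent at 0 or 1 mismatch from the 29 genes (0.0481% and 0.644% of all genes) and present at up to 2 mismatches in 4 (13.8%, against 4.40%), with single half-sites inside the repeat counted in both searches. Of these 4, Echs1 and Acox2 were called lower and Etfa and Slc25a20 were not. For Acox2 the match was not in every promoter window. The half-sites before the start are shown in capitals on each gene's own strand, and the opposite orientation reads TGACCT.
Acadm (chr3:153944875-153944893, minus strand): gTGACCTtcgggctccggt
Acadvl (chr11:70015498-70015527, minus strand): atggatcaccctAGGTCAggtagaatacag
Echs1 (chr7:140116487-140116516, minus strand): accagcccgctcAGGTCAcgggtccacccc
Cpt1a (chr19:3323195-3323224, plus strand): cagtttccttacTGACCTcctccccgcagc
Scp2 (chr4:108118639-108118668, minus strand): gtctaacacagtAGGTCAaaagaacccata
The half-site of Phyh begins at base 37 counted from the start and is not shown. Acadm, Acadvl, Echs1 and Phyh were called lower and Cpt1a and Scp2 were not, and the promoters of Acaa1b and Acox3 did not hold these 6 letters in the window. The part of any of these sequences in the decreases was not tested.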

How the data were processed

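The RNA-seq libraries of periocular skin comprised 4 ft/ft and 4 ft/ftMyD88-/- libraries, grouped by the sample labels. The values are raw counts per gene as deposited by the authors, whose methods give 50-base reads aligned to GRCm38.p6 (HISAT, tophat2) and counted with HTSeq at default settings. The annotation release and strand setting are not given in the sources used here, and the labels of these libraries instead name total RNA, a fixed-tissue protocol and Cell Ranger. The 36 genes and all lists were chosen with earlier results of these data known.

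Tests used edgeR 4.0.16 under R 4.3.3 on genes with at least 10 summed counts (glmQLFit, robust, TMM, no covariate, two-sided, Benjamini-Hochberg adjustment at 0.05). SE is the absolute log2 fold change divided by the square root of F, and intervals are 95%. Values in every library are given for called genes without overlap and for Cpt1a, Cpt1b, Acaa1a and Acaa1b. Of each other pathway list at most the 2 genes with the smallest adjusted p in each direction are named, with Ppara added after its value was seen, and some genes are not reported here, and Abcd2 is given in every library because of its spread. Marker genes named beside results, Tmem79 and the count ratios were also chosen afterwards.

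Alternatives were DESeq2 1.42.0, RLE, library size alone, TMM without marker and oxidation genes, edgeR's filterByExpr, no filter, limma 3.58.1 voom, a replicate block, omission of single libraries, an adjusted p under 0.01, a minimum absolute log2 fold change of 1, and lists without uncertain genes. Replicates differed by at least 16.3 in chi-square per degree of freedom, so none was a duplicate. Where nothing ties a library to its own mouse, p-values measure only the spread between libraries, and floors cover counting error only. On simulated data the fit called 187 of 200 genes changed 2-fold and 8 unchanged genes, of 20193 tested. The changed genes were well counted, went up and down in equal number, and all genes shared the same dispersion. Most called decreases here were smaller than 2-fold, so these rates do not carry over to them. Exon overlap and shared 50-base sequences come from GENCODE vM21 (GRCm38), which may not be the authors' annotation, and coordinates and promoters from RefSeq (GRCm38.p6). WT samples were not analysed here.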

Additional observations from a re-analysis of the deposited data

Results flagged for a closer look

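Of 70 gene and group combinations (35 genes, 4 libraries a group), 3 held a library that stood apart from the other 3 by Dixon's test at 95%, which flags about 5% of groups by chance. Hacl1, the α-oxidation lyase, was at 2.34 CPM in ft/ft replicate 4 against 1.35 to 1.45 CPM in the other ft/ft libraries. Abcd2, the peroxisomal importer, was at 44.9 CPM in ft/ftMyD88-/- replicate 3 against 21.3 to 24.8 CPM in the others of its group. Acot8, the peroxisomal thioesterase, was at 17.8 CPM in ft/ftMyD88-/- replicate 3 against 19.2 to 19.4 CPM. None of the 3 genes was called, and Abcd2 was called lower without that library (log2 fold change -0.83).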

How the results depend on the processing

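The 18 decreases kept their direction and their calls under DESeq2, RLE, TMM without marker and oxidation genes, filterByExpr, no filter and limma voom. With library size alone 14 genes were called lower and 3 higher, the median was -0.20, and 5 genes that had not been called turned above 0, Cpt2 (0.014), Acadl (0.16), Acads (0.15), Acaa1a (0.0594) and Etfa (0.13). Leaving out each library in turn gave 17 to 19 lower and 0 to 1 higher (Crot), and log2 fold changes from -0.10 to 0.0098 for Etfa, -0.0446 to 0.0415 for Acadl and -0.0659 to 0.0321 for Acads. A minimum absolute log2 fold change of 1 left 1 gene lower (Acaa1b), 0 in mitochondria and 1 in peroxisomes, since it sets a higher bar by construction. With the replicate block 17 genes were lower, Echs1 losing its call (edgeR adjusted p = 0.0856), and 2144 genes were lower and 1895 higher over all. No shared deviation of same-numbered libraries was seen, with correlations of -0.34, 0.03, 0.09 and -0.09, but so few values cannot exclude a pairing. Without Cpt1b, Etfb and Hacl1, a choice made after seeing the data, 18 genes were lower. Precision is limited by 4 libraries a group and, for Cpt1b, Etfb and Hacl1, by counts of 8, 293 and 384 in all.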
